A study of Gossypium hirsutum with 45 samples.

Results

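Cotton seedlings carry a large set of genes whose deposited description names the Bet v I domain, and these genes were followed through the first 180 min of osmotic stress in leaf, root and stem. Members were all genes whose description contains "Bet v I" in any case, which gave 100 of the 75376 genes in the deposited table. The rule reads only the description, though the family was picked with earlier results of these data known. Their summed level was about an order of magnitude higher in root than in leaf or stem before treatment. In root, 46 of the 53 members that could be tested were called in at least 1 comparison with 0 min, in both directions, where 70.1% of all genes tested in root were called. In stem 16 of 51 were called, all higher, against 39.9% of all genes called in either direction, and in leaf 8 of 44 were called, each at 180 min, against 31.9%.

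Bet v I proteins are small soluble plant proteins that fold around a deep hydrophobic cavity, and they are named after the main allergen of birch pollen. The family includes the pathogenesis-related proteins of class 10 (PR-10), the major latex proteins and their relatives (MLP), and norcoclaurine synthase, an enzyme of alkaloid synthesis. Several members of the family are known to bind cytokinins, flavonoids, fatty acids or other small hydrophobic ligands, and PR-10 transcripts are known in many plants to accumulate after infection, wounding, abscisic acid or drought. The receptors for abscisic acid share the fold but belong to a separate domain family and carry no such description here.

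RNA sequencing was done on upland cotton (Gossypium hirsutum) of the variety Hengmian HD008, grown in sterilized sand at 25 °C with 16 h of light and 8 h of darkness. At the 3-leaf stage the seedlings received 10% PEG 6000, polyethylene glycol, which draws water from roots without entering them readily and is widely used in place of drought. Leaf, root and stem were sampled untreated (0 min, labelled CK) and at 10, 30, 60 and 180 min of treatment, which makes 15 groups of 3 libraries. Since the labels do not tell whether the 3 libraries of a group are separate plants, the p-values may reflect technical spread alone. All treated groups were compared with the 0 min group of their tissue, so the 4 comparisons of a tissue share their controls. The 45 libraries include no untreated plants at the later times. Effects of elapsed time or handling therefore cannot be told apart from those of PEG.

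Levels are the deposited FPKM values, that is, fragments per kilobase after scaling for depth. The counted reads per library ranged from 16373617 to 21774520. With the deposited depth factors, a single read in a 1 kb gene equalled 0.0440 to 0.0899 FPKM. Tissue identity was checked on marker lists taken from the descriptions. The summed FPKM of 274 leaf genes (the small Rubisco subunit, chlorophyll-binding and photosystem proteins) was 9181 to 17137 in leaf libraries, 1999 to 4849 in stem and 51.2 to 263 in root. The sum of 69 root genes (Casparian strip, root cap, nitrate and ammonium transporters) was 1112 to 5163 in root, 204 to 542 in leaf and 105 to 560 in stem. A list of 164 stem genes (laccases, cellulose synthases, fasciclins) did not separate stem (1116 to 3799) from root (1179 to 5399), while 53 genes of xylem and sieve elements summed to 146 to 314 in stem against 60.9 to 158 in root and 64.5 to 109 in leaf. Libraries of a group correlated at 0.855 to 0.979 on the log2 scale. The lowest value was between replicates 2 and 3 of stem at 180 min, and replicate 1 of stem at 0 min also stood apart from the other 2 libraries of its group (0.884 and 0.894).

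Of the 100 members, 46 lie on chromosomes of the A subgenome and 54 on those of the D subgenome, and they occupy 15 of the 26 chromosomes. They are concentrated on A02 and A10 with 13 members each and on D02 and D10 with 18 members each. Neighbouring members at most 200 kb apart formed 20 clusters that hold 85 members. The largest cluster has 16 members on D10, in coordinates of the deposited table at D10:51800270-52248704, with 1 other gene inside it. The genes are short, with a median length of 779 bases against 1491 over all genes. In 84 members the description gives only the Pfam domain, and 16 also carry a Swiss-Prot name: 6 are named as birch pollen allergen Bet v 1-F/I, 3 as the Arabidopsis MLP-like protein 423, 2 as the apricot allergen Pru ar 1, and the other 5 names occur once each. Where no name is given below, only the domain is annotated. The tandem copies and the A and D copies are related in sequence, and the sources used here do not state how reads matching several copies were counted, so the split of reads between close copies is uncertain.

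No read was counted for 15 members in any of the 45 libraries. Another 20 members had between 1 and 218 reads over all libraries and did not reach an FPKM of 1 in 3 libraries of any fit. The silent and near-silent members were shorter, with a median length of 480 bases against 834 for the 65 that passed this filter in the fit of all libraries. The number that passed within a tissue was 44 in leaf, 53 in root and 51 in stem. Counts of called members below refer to these tested genes, and a gene present in 1 group only could pass the filter through that group.

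Before treatment most of the tested members had their highest level in root. Among the 65 tested members the mean level at 0 min was highest in root for 45, in leaf for 11 and in stem for 9. This count and the next were not made over all genes, and 12 of the 65 passed the filter in root only. A mean of at least 100 FPKM was reached by 18 members in root, 1 in leaf and 0 in stem. The one in leaf was Gohir.D04G148700, named here after its values were seen, with 92.3, 125 and 282 FPKM, though its root values of 325 to 354 FPKM were higher still. Gohir.A10G170000 had the highest mean over all libraries, and in root at 0 min it stood at 1351, 1360 and 1462 FPKM. In leaf at 0 min the same gene gave 26.4, 58.6 and 73.4 FPKM, and in stem 15.1, 27.2 and 143. Root did not overlap with either of the other tissues for this gene, and the high stem value was replicate 1. Gohir.D10G176900, the second highest, showed the same order, with 1086 to 1209 FPKM in root, 36.1 to 82.2 in leaf and 6.15 to 149 in stem, and the highest stem value was again replicate 1.

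**Figure D1:**
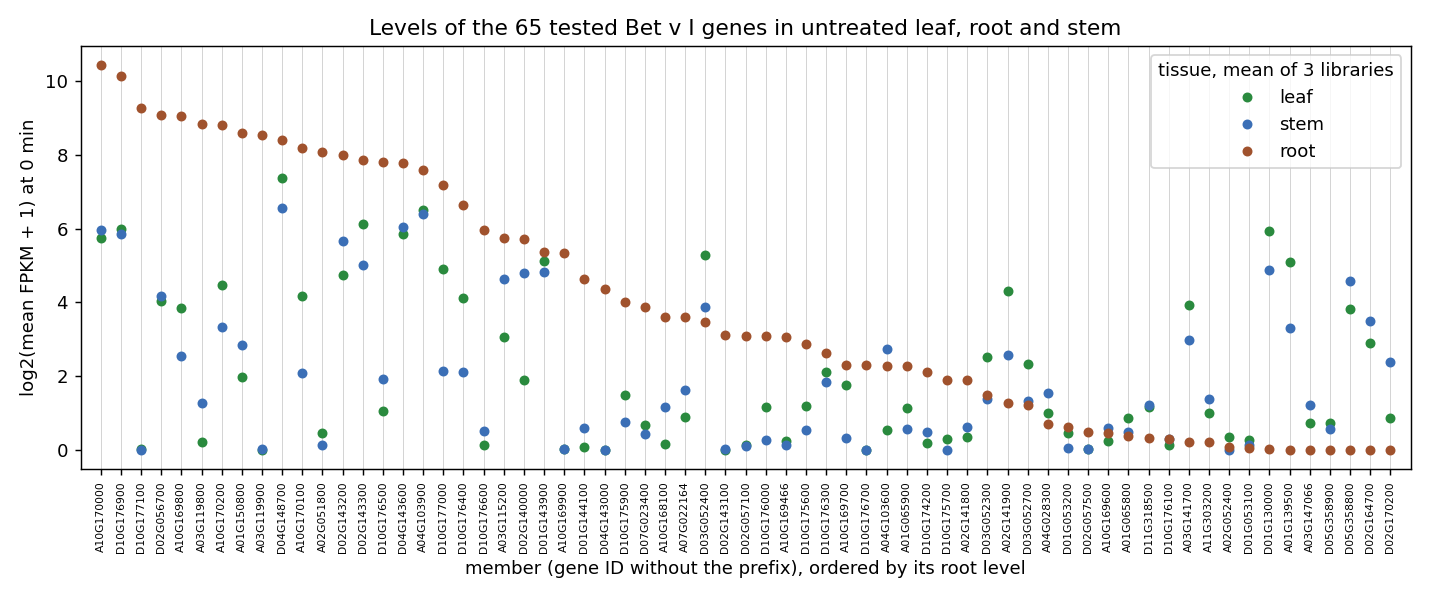
Level of each of the 65 tested members in untreated plants, as log2 of the mean FPKM plus 1 over 3 libraries (y axis), for members ordered by their root level (x axis), with 1 point per tissue. For 45 members the root point is the highest, and the members at the right with a root value near 0 include Gohir.A01G139500, Gohir.D01G130000 and Gohir.D05G358800.

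The comparison of leaf with root at 0 min called 39 members lower in leaf and 10 higher, where 23.5% and 23.7% of all 54622 genes tested were called in these directions (limma, adjusted p under 0.05). Root against stem called 38 members higher in root and 8 lower, against 21.1% and 20.9% of all genes. Leaf against stem called 11 higher in leaf and 3 lower, against 17.7% and 12.9% of all genes. The median log2 difference of the members was -1.60 for leaf minus root and 1.69 for root minus stem, while the medians over all genes were -0.01 and -0.02.

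Gohir.D10G177100, Gohir.A03G119900 and Gohir.A02G051800 were abundant in root and nearly silent elsewhere. These 3 were the only members of at least 100 FPKM in root at 0 min with means under 1 FPKM in both other tissues. Gohir.D10G177100 gave 491, 667 and 701 FPKM in root at 0 min, and in leaf it had reads in 1 of the 3 libraries, at 0.0650 FPKM. In stem at 0 min it had no read, so its root mean of 620 FPKM was at least 3109-fold higher against a floor of 3 reads per library. Gohir.A03G119900 stood at 294, 369 and 453 FPKM in root and had no read in any leaf library, and Gohir.A02G051800 at 234, 253 and 330. In stem and leaf libraries of all times Gohir.D10G177100 did not exceed 0.341 FPKM and Gohir.A03G119900 did not exceed 0.133.

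A smaller group showed the opposite order. Gohir.A01G139500 and Gohir.D01G130000, both named after MLP-like protein 423 of Arabidopsis, had means of 32.9 ± 11.3 and 59.9 ± 22.4 FPKM in leaf at 0 min (SD, n = 3). In root Gohir.A01G139500 had no read in any of the 15 libraries, and its leaf level was at least 176-fold higher than the floor of 3 reads in root at 0 min. In stem it was at 5.67, 10.1 and 11.02 FPKM, below the lowest leaf value of 25.4. Gohir.D05G358800 was at 9.36, 14.6 and 15.7 FPKM in leaf and at 5.24, 25.6 and 37.4 in stem, with no read in root at 0 min. The stem and leaf values of this gene overlapped. Gohir.A03G141700, the third gene named after MLP-like protein 423, was at 5.17 to 22.8 FPKM in leaf and at most 0.308 in root at 0 min.

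The summed FPKM of the 100 members was 898 ± 102 in leaf, 8596 ± 510 in root and 698 ± 271 in stem at 0 min (mean ± SD, n = 3). The members took 0.719 ± 0.0634 percent of all counted reads in root, 0.0867 ± 0.0124 percent in leaf and 0.0689 ± 0.0220 percent in stem. The sum is dominated by few genes, since the 5 highest members of a library made up 42.4 to 66.0 percent of it in root. After 180 min the root libraries summed to 8012, 10625 and 13544 FPKM, a range that overlaps with the 8237, 8371 and 9179 at 0 min. As a share of reads the direction was the other way, with 0.599 ± 0.132 percent at 180 min. This turn follows from the scale: dividing each library by its own total in place of the deposited depth factor moves the median gene of root at 180 min by -0.60 on the log2 scale, and the sum then went from 8732 ± 769 to 7105 ± 1518. In stem the sum was 538, 546 and 1012 FPKM at 0 min and 984, 1040 and 1927 at 180 min, so the groups overlapped through replicate 1 at 0 min. In leaf it was 978 to 1106 FPKM at 180 min against 796 to 999.9 at 0 min.

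**Figure D2:**
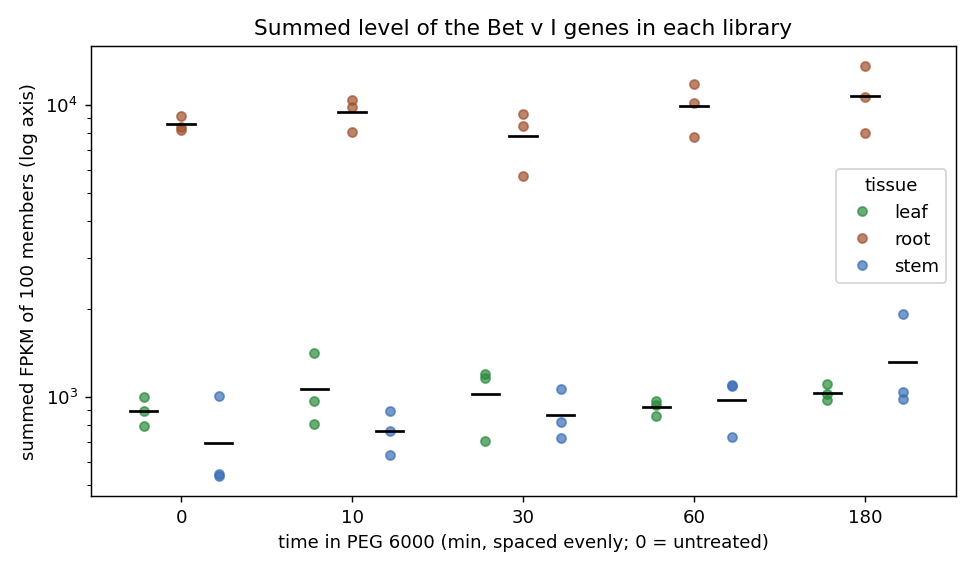
Summed FPKM of all 100 members (y axis, log scale) in each of the 45 libraries by time in PEG 6000 (x axis), with points for libraries, colours for tissues and black bars for group means. Root libraries lie between 5712 and 13544 at every time, above all leaf and stem libraries, and no time stands clear of 0 min in root.

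In root, a sum that overlapped between times covered opposite changes of single members. At 10 min, 2 members were called higher and 1 lower, where 8.16% and 7.03% of all 46711 genes tested were called. Without one of the unnumbered libraries at 0 min (x) the total of 3 became 6. At 30 min the counts were 6 higher and 9 lower, against 17.6% and 16.6% of all genes, and without replicate 2 at 30 min they were 3 and 6. At 60 min 19 were higher and 14 lower, against 19.5% and 19.1%, and at 180 min 19 were higher and 19 lower, against 28.5% and 26.9%. Without library y at 0 min the counts at 60 min were 15 and 9. Leaving out each library of the groups compared gave 24 to 31 called members at 60 min and 32 to 38 at 180 min. The full fit had called 33 and 38. Scaled to own totals, the split at 180 min was 15 higher and 24 lower. Over all times together the F test called 46 of 53 members, 45 of them also called in at least 1 comparison with 0 min, against 66.8% of all genes. Of the members called at any time, 23 were only higher, 22 only lower and 1 both, and 26 were first called at 60 min, against 3 at 10 min, 12 at 30 min and 5 at 180 min. The direction over all times and the time of first call were not counted over all genes.

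The largest gains in FPKM were in a pair of genes that were already well expressed. Gohir.D04G143600 was at 174, 215 and 275 FPKM in root at 0 min and at 861, 1496 and 2630 at 180 min. The groups did not overlap, and the log2 change was 2.78 ± 0.41 (SE; limma adjusted p = 6.95e-05). It had already been called at 60 min, with 461 to 911 FPKM (log2 change 1.67 ± 0.41, limma adjusted p = 0.00572). Gohir.A04G103900 went from 112, 185 and 276 to 772, 1447 and 2248 FPKM, again without overlap (log2 change 2.92 ± 0.41, limma adjusted p = 4.25e-05). At 180 min Gohir.D04G143600 was the highest member of the family in 2 of the 3 root libraries. Gohir.A10G170000, the highest in each root library at 0 min, was at 934, 1294 and 1425 FPKM at 180 min, a log2 change of -0.21 ± 0.29 that did not pass (limma adjusted p = 0.554).

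The largest rises at 180 min on the log2(FPKM + 1) scale were those of genes in clusters near the start of A02 and D02. Gohir.D02G057100 stood at 2.50, 9.54 and 10.6 FPKM at 0 min and at 8.37 to 12.3 at 30 min. It then rose to 61.2, 65.5 and 92.0 at 60 min and to 131, 221 and 330 at 180 min (log2 change at 180 min 4.82 ± 0.45, limma adjusted p = 1.08e-06). Every library of the last 2 times lay above every earlier one. Gohir.D02G057500, from the same cluster of 12 members, was at most 0.618 FPKM at 0 min and at 9.10, 57.9 and 82.9 at 180 min (4.75 ± 0.58, limma adjusted p = 1.36e-05). Gohir.A02G052400, in the A02 cluster of 11 members, had reads in 1 of the 3 libraries at 0 min and was at 17.9, 25.4 and 56.2 FPKM at 180 min (4.86 ± 0.42, limma adjusted p = 6.11e-07). Changes were measured on log2(FPKM + 1), which understates the change of genes as low as these.

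Neighbours of these genes were abundant throughout. Gohir.A02G051800 was at 234, 253 and 330 FPKM at 0 min, at 405, 867 and 941 at 30 min, and at 568, 984 and 1135 at 180 min. It was called higher at 30 min (log2 change 1.36 ± 0.34, limma adjusted p = 0.00719) and at 180 min (1.67 ± 0.34, limma adjusted p = 9.13e-04). At 60 min its 3 values, 387, 478 and 501 FPKM, also lay above 0 min without a call. Gohir.D02G056700, named after the apricot allergen Pru ar 1, was called higher at 30 min only, with 591, 1201 and 1531 FPKM against 409, 465 and 765 (0.97 ± 0.34, limma adjusted p = 0.0426). Its groups overlapped.

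The members of the large D10 cluster differed among themselves in root. Of its 16 genes 13 were tested, and at 180 min 6 were higher and 2 lower. The first and the fourth gene in order, Gohir.D10G175600 and Gohir.D10G175900, rose from 2.66 to 12.6 and 9.56 to 23.6 FPKM at 0 min to 63.3 to 91.0 and 114 to 154 at 180 min. Both were already higher at 60 min, with 24.4 to 98.0 and 95.8 to 205 FPKM and with log2 changes of 3.15 ± 0.50 and 3.35 ± 0.35 (limma adjusted p = 2.92e-04 and 8.83e-06). The fourteenth gene, Gohir.D10G176900, was at 1086, 1130 and 1209 FPKM at 0 min and at 913, 1070 and 1507 at 180 min, a log2 change of 0.00 ± 0.29 that did not pass (limma adjusted p = 0.992). The last 2 genes fell: Gohir.D10G177000, named after Bet v 1-A, from a mean of 144 to 55.8 FPKM (-1.34 ± 0.32, limma adjusted p = 0.00300), and Gohir.D10G177100 from 620 to 118.

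**Figure D3:**
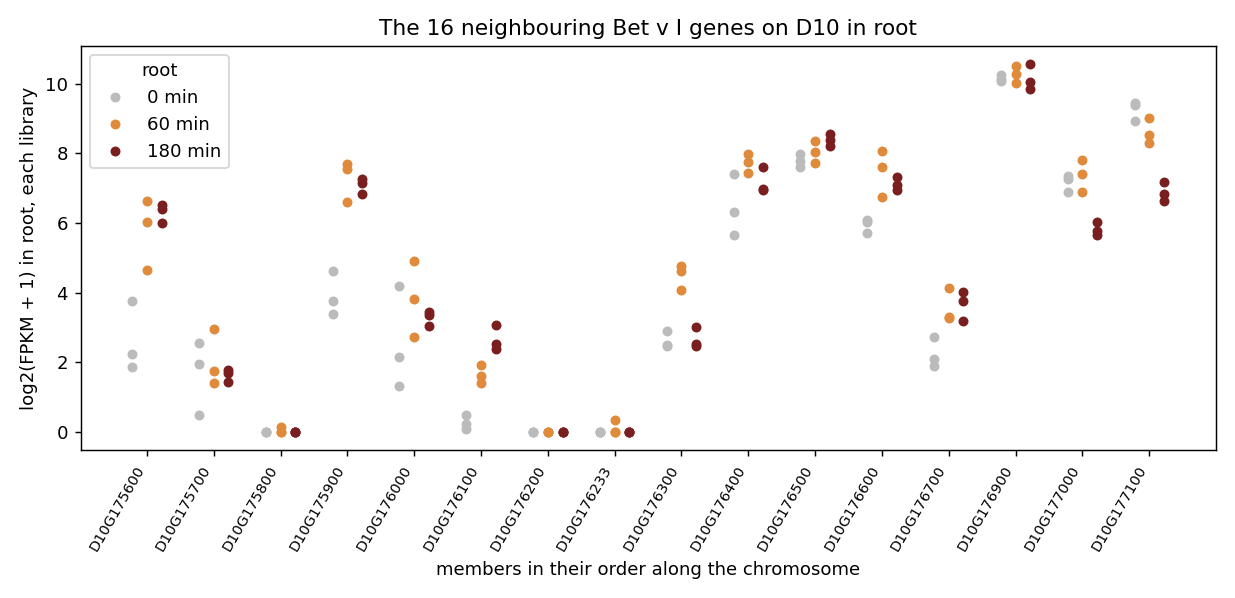
Root levels of the 16 members of the D10 cluster in their order along the chromosome (x axis), as log2(FPKM + 1) (y axis), with 1 point per library at 0, 60 and 180 min. Gohir.D10G175600, Gohir.D10G175900 and Gohir.D10G176600 lie higher at 60 and 180 min, Gohir.D10G176900 stays near 10 on this scale, and Gohir.D10G177000 and Gohir.D10G177100 lie lower at 180 min.

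Within the cluster the timing also differed. Gohir.D10G176300 was among the 3 members called at 10 min, with 8.93, 9.53 and 20.2 FPKM against 4.57, 4.64 and 6.48 (log2 change 1.08 ± 0.31, limma adjusted p = 0.0288). That call was lost without library x or y at 0 min or replicate 2 at 10 min, with limma adjusted p of 0.0821, 0.102 and 0.133. Gohir.D01G053200 on D01, the other early rise, went from 0.457, 0.464 and 0.645 to 1.54, 2.03 and 2.57 FPKM at 10 min (0.99 ± 0.20, limma adjusted p = 0.00522) and was called higher at every later time. Gohir.D10G176300 stood at 14.6 to 26.8 FPKM at 30 min and 15.8 to 26.3 at 60 min, and at 180 min its values of 4.53, 4.78 and 7.04 overlapped with those before treatment. Gohir.D10G176500, named after Bet v 1-F/I, was the member called in both directions. It was at 196, 218 and 252 FPKM at 0 min, lower at 30 min with 118, 136 and 142 (-0.74 ± 0.22, limma adjusted p = 0.0164) and higher at 180 min with 294, 332 and 377 (0.59 ± 0.22, limma adjusted p = 0.0327).

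The genes of A10 also differed among themselves. Gohir.A10G169900 was at 25.5, 43.6 and 49.96 FPKM in root at 0 min and no higher than 45.3 at 30 min. It stood at 182, 276 and 310 at 60 min and at 202, 217 and 261 at 180 min (log2 change at 60 min 2.68 ± 0.31, limma adjusted p = 2.13e-05). Its neighbour Gohir.A10G170100 fell from 218, 264 and 400 to 70.5, 79.0 and 98.0 FPKM at 180 min (-1.79 ± 0.40, limma adjusted p = 0.00173). Gohir.A10G170200 was higher at 60 min only, with 859, 974 and 1070 FPKM against 412, 466 and 468 (1.10 ± 0.24, limma adjusted p = 0.00270). Gohir.A10G169800 was higher at 60 and at 180 min, from 417 to 597 FPKM to 824 to 984 at 180 min (0.81 ± 0.30, limma adjusted p = 0.0372).

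The falling members in root included genes that began at 294 FPKM or more in every library. Gohir.A03G119800 was at 314, 476 and 599 FPKM at 0 min, at 35.6, 48.7 and 143 at 60 min and at 13.9, 20.5 and 30.1 at 180 min. This was the largest fall of the family at 180 min (log2 change -4.38 ± 0.51, limma adjusted p = 9.42e-06). Its neighbour Gohir.A03G119900 was called lower from 30 min on, going from 294, 369 and 453 to 79.8, 107 and 154 FPKM at 30 min and 9.61, 17.2 and 23.5 at 60 min (-4.45 ± 0.51 at 60 min, limma adjusted p = 2.14e-05). At 180 min it was at 14.98, 34.0 and 38.5 FPKM. The fall of Gohir.A01G150800 was stepwise, from 314 to 435 FPKM at 0 min to 196 to 242 at 30 min without a call, 141 to 164 at 60 min and 24.7 to 78.0 at 180 min (-3.27 ± 0.33 at 180 min, limma adjusted p = 2.33e-06). From 30 min on its values did not overlap with those at 0 min.

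**Figure D4:**
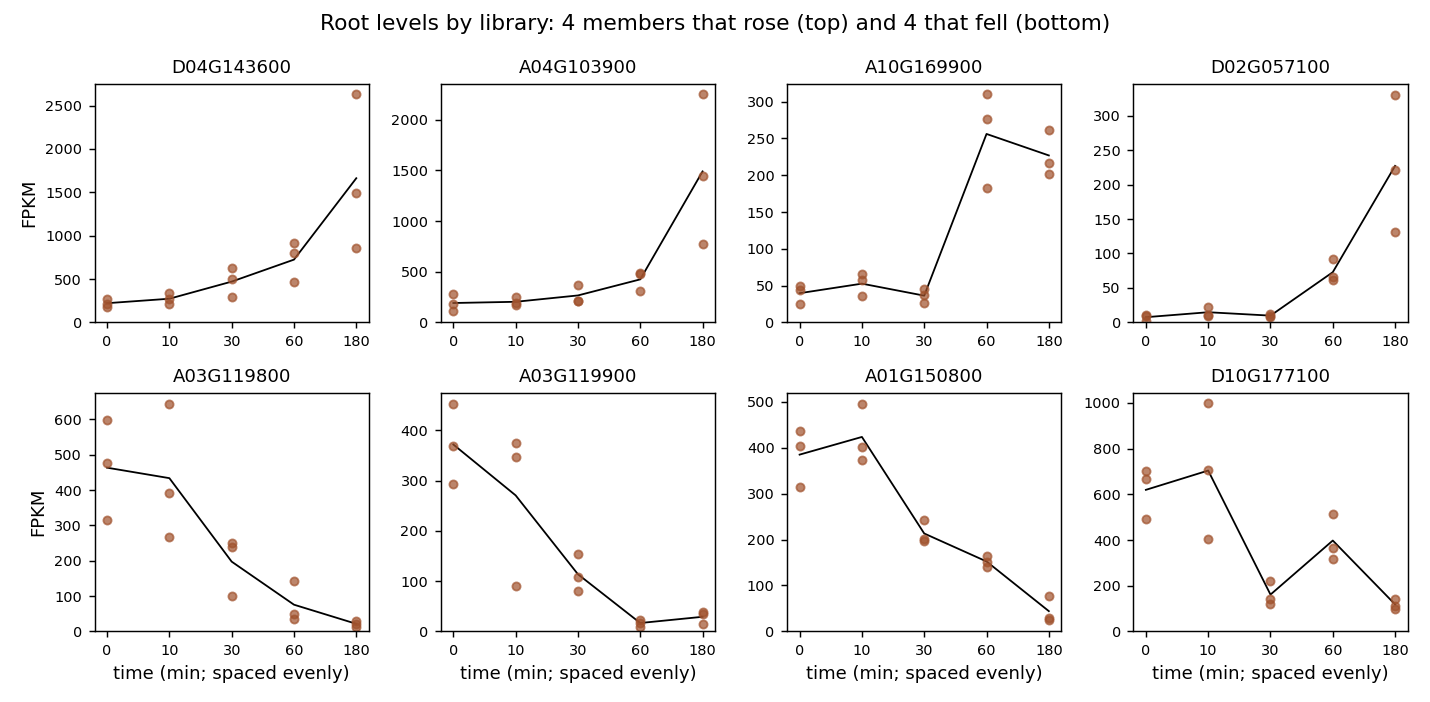
Root FPKM (y axis, from 0) against time in PEG 6000 (x axis, min) for 4 members that rose and 4 that fell, with 1 point per library and a line through the group means. Gohir.A04G103900 and Gohir.D04G143600 reach means of 1489 and 1662 FPKM at 180 min, while Gohir.A03G119800 and Gohir.A03G119900 fall to 21.5 and 29.1.

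Other falls were transient or came in 2 phases. Gohir.D10G177100 dropped to 120, 144 and 220 FPKM at 30 min (log2 change -1.96 ± 0.33, limma adjusted p = 5.57e-04), stood at 316, 365 and 513 at 60 min without a call, and was lower again at 180 min with 98.4, 113 and 144 (-2.38 ± 0.33, limma adjusted p = 4.53e-05). Gohir.D04G143000 showed a similar course at a lower level, with 16.1 to 21.6 FPKM at 0 min, 1.41 to 6.81 at 30 min, 12.7 to 16.1 at 60 min and 0.770 to 6.50 at 180 min. Gohir.D07G023400 was at 1.20, 1.47 and 2.05 FPKM at 30 min against 9.53, 13.9 and 17.2 before treatment (-2.48 ± 0.36, limma adjusted p = 1.90e-04). The earliest fall was that of Gohir.D03G052300, from 1.45 to 2.41 FPKM to 0.401 to 1.27 at 10 min (-0.72 ± 0.21, limma adjusted p = 0.0318). This call was lost without library y at 0 min or replicate 1 or 3 at 10 min (limma adjusted p of 0.150, 0.128 and 0.106). With a pseudocount of 0.1, on recovered reads (voom) and in the 6 libraries alone it was lost too (limma adjusted p of 0.0673, 0.0519 and 0.0850). The gene was called at every later time.

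Tissue markers moved during the same time. Of the 69 root marker genes 43 were tested in root, and at 180 min 13 were lower and 8 higher, with a median log2 change of -0.52. Their summed FPKM was 1845 to 2939 at 0 min and 1112 to 1332 at 180 min, and the 3 Casparian strip genes among them summed to 23.2, 29.9 and 30.9 FPKM at 0 min and 0, 7.90 and 11.7 at 180 min. The 164 stem list genes summed to 1179 to 1548 FPKM in root at 0 min and 2970 to 5399 at 180 min, and the 274 leaf genes to 79.96 to 147 and 179 to 263. In bulk tissue, fewer cells of a type and less RNA per cell cannot be told apart, and the part of such shifts in the changes of the members was not tested.

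Calls within a cluster were of 1 direction in some clusters and of both in others. Among 13 clusters with at least 2 members tested in root, 5 had members called higher only at 180 min, 4 lower only, and 4 both. Of the mixed clusters, those on A04 and D04 have 2 members each. In these, Gohir.A04G103900 and Gohir.D04G143600 rose as described, while Gohir.A04G103600 fell from a mean of 3.86 to 0.666 FPKM (log2 change -1.47 ± 0.37, limma adjusted p = 0.00438, groups overlapping) and Gohir.D04G143000 from 19.4 to 3.90 (-2.29 ± 0.50, limma adjusted p = 0.00153). Calls were spread over both subgenomes: 8 of 22 tested A members were higher and 7 lower at 180 min, and 11 of 31 D members were higher and 12 lower. Over all genes tested in root, 28.5% were higher and 26.9% lower at that time. Neighbouring genes of other families were not counted in this way.

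In the full stem fit all calls of members were upward. Some called members were near 0 at 0 min, such as Gohir.A02G052400 without a read there. Such members passed the filter through treated groups and could only be called higher. No member was called at 10 min (0 of 51), where 0.0021% of all 47698 genes were called higher and 0% lower, and 4 members had an unadjusted p under 0.05 while limma on recovered reads (voom) also called 0. At 30 min 1 member was higher and 0 lower, against 1.61% and 0.759% of all genes. At 60 min 13 were higher and 0 lower, against 13.3% and 11.6%, and at 180 min 14 were higher and 0 lower, against 15% and 14.3%. Of the 51 tested members, 37 were not called at 180 min, and the median log2 change of the 51 was 0.64, beside -0.00 over all genes. The F test over all times called 16 members, against 34.4% of all genes. Without replicate 1 at 0 min, the library that stood apart, 18 members were higher and 1 lower at both 60 and 180 min. Without replicate 3 at 0 min 9 were higher and 0 lower at 60 min. Without replicate 2 at 0 min the counts were 10 and 1 at 60 min and 14 and 2 at 180 min. Without replicate 2 at 180 min 12 were higher and 0 lower at that time, and without replicate 3 the counts were 15 and 3.

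Gohir.A01G065800 showed one of the clearest rises in stem. It was at 0.00, 0.458 and 0.757 FPKM at 0 min, at 0.284 to 1.60 at 30 min, at 10.6, 13.8 and 21.8 at 60 min and at 16.6, 18.1 and 58.1 at 180 min. The last 2 times did not overlap with any earlier one, and the log2 change was 3.52 ± 0.43 at 60 min and 4.31 ± 0.43 at 180 min (limma adjusted p = 3.54e-04 and 3.82e-05). In root the same gene was at 0.939 to 1.67 FPKM at 60 min without a call, and at 3.91, 8.99 and 14.3 at 180 min (2.82 ± 0.36, limma adjusted p = 1.75e-05). Gohir.D10G175600 stood between 0.0512 and 0.912 FPKM in stem at 0 min and at 19.1, 28.8 and 83.2 at 180 min (4.71 ± 0.50, limma adjusted p = 5.49e-05). Gohir.D10G175900 went from 0.120 to 1.25 FPKM to 10.97, 11.7 and 42.6 (3.54 ± 0.48, limma adjusted p = 2.55e-04). In each of these 3 genes the highest value at 180 min was replicate 2.

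Some members that were abundant in root had scattered values in stem at 0 min. Gohir.A10G169800 was at 0.462, 0.865 and 13.1 FPKM at 0 min, at 14.8, 39.1 and 44.2 at 60 min and at 34.5, 40.5 and 104 at 180 min (log2 change at 180 min 3.99 ± 0.82, limma adjusted p = 0.00349). Gohir.D10G176900 was at 6.15, 15.4 and 149 FPKM at 0 min and at 134, 193 and 434 at 180 min. The groups overlapped through replicate 1 at 0 min, though the change passed (3.11 ± 0.93, limma adjusted p = 0.0244). Gohir.A10G170000 had 99.3, 107 and 264 FPKM at 180 min against 15.1, 27.2 and 143, which did not pass (1.82 ± 0.72, limma adjusted p = 0.0757). The summed root markers in stem were 229 FPKM in replicate 1 at 0 min against 105 and 116 in the other 2 libraries, and 214, 231 and 365 at 180 min, with the highest in replicate 2. At 60 min they were 458 to 560, above every library at 0 min. The 3 Casparian strip genes summed to at most 0.104 FPKM in these 6 libraries, and Gohir.A03G119900, at 294 FPKM or more in untreated root, did not exceed 0.112 FPKM in any of them. The stem list summed to 2065 to 2731 FPKM in stem at 0 min and 1116 to 1502 at 180 min, without overlap. The part of such shifts in these stem values was not tested.

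Of the 14 members higher in stem and the 19 higher in root at 180 min, 10 were shared: Gohir.A01G065800, Gohir.A01G065900, Gohir.A02G051800, Gohir.A02G052400, Gohir.A10G169800, Gohir.D01G053100, Gohir.D01G053200, Gohir.D02G057100, Gohir.D10G175600 and Gohir.D10G175900. Gohir.A02G052400 had no read in stem at 0 min and was at 3.76, 6.09 and 12.9 FPKM at 180 min, at least 38.5-fold higher against a floor of 3 reads per library. Gohir.D02G057100 was at most 0.213 FPKM in stem at 0 min and at 6.87, 7.53 and 24.0 at 180 min (log2 change 3.48 ± 0.37, limma adjusted p = 5.62e-05). Among the 39 members tested in both tissues, these 10 were 66.7 percent of those higher in root and 83.3 percent of those higher in stem, and 0 went in opposite directions. Members near 0 in stem at 0 min could not be called lower there. Among the 41972 genes tested in both, 4157 were higher in both, 34.4 percent of those higher in root and 64.5 percent of those higher in stem, and 991 went in opposite directions. The mean of Gohir.D02G057100 at 180 min was 12.8 FPKM in stem and 227 in root.

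The members called higher in both stem and leaf at 180 min were Gohir.A01G139500, Gohir.D01G053100 and Gohir.D01G053200. Gohir.A01G139500, named after MLP-like protein 423, was at 5.67 to 11.02 FPKM in stem at 0 min and at 62.5, 94.9 and 104 at 180 min (log2 change 3.16 ± 0.49, limma adjusted p = 6.49e-04). The single call at 30 min was Gohir.D02G056700, with 26.9, 36.9 and 39.1 FPKM against 10.7, 18.7 and 21.3 (1.02 ± 0.22, limma adjusted p = 0.0382). That call was lost without a filter on low values (adjusted p = 0.0515), in a fit of the 6 libraries alone (adjusted p = 0.179), and in the fit without replicate 3 at 0 min or without replicate 1 or 3 at 30 min (adjusted p of 0.129, 0.124 and 0.127).

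In leaf members were called at 180 min only. At 10 min 0 of 44 members were called, where 0.884% of all 46265 genes were higher and 0.625% lower. At 30 min 0 were called against 8.33% and 9.5% of all genes, and at 60 min 0 against 2.04% and 1.9%. Members with an unadjusted p under 0.05 numbered 1, 3 and 5 at these times, and limma on recovered reads (voom) called 0 at each. At 180 min 5 members were higher and 3 lower, against 9.89% and 9.61% of all genes, and the F test over all times called 8, against 30% of all genes. The F test count was 4 without any 1 of the libraries at 180 min and 5 without replicate 1 at 30 min. The count at 180 min was 4 without replicate 3 at 0 min, 4 without replicate 1 or replicate 3 at 180 min and 3 without replicate 2 at 180 min. The median log2 change of the 44 members was -0.30 at 180 min, beside -0.04 over all genes.

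The larger rises in leaf were in genes nearly or wholly without reads in untreated root. Gohir.A01G139500 was at 25.4, 27.4 and 46.0 FPKM at 0 min, at 82.4, 84.1 and 89.1 at 60 min and at 149, 227 and 355 at 180 min (log2 change at 180 min 2.81 ± 0.39, limma adjusted p = 2.64e-04). The 60 min libraries lay above 0 min without overlap but did not pass. Gohir.D01G130000, also named after MLP-like protein 423, was at 43.2, 51.2 and 85.3 FPKM at 0 min and at 124, 187 and 257 at 180 min (1.64 ± 0.37, limma adjusted p = 0.00738). Gohir.D02G164700 had the largest change of the family in leaf, from 2.30, 7.09 and 9.97 to 61.4, 66.6 and 69.5 FPKM (3.33 ± 0.44, limma adjusted p = 2.15e-04). Up to 60 min its highest leaf value was 20.1 FPKM. The other 2 members higher in leaf were Gohir.D01G053100 and Gohir.D01G053200, neighbours on D01 whose means at 180 min were 1.21 and 1.66 FPKM. Without replicate 2 or 3 at 0 min neither call held, with limma adjusted p of 0.0891 and 0.0637 for Gohir.D01G053100 and 0.115 and 0.0521 for Gohir.D01G053200. Without any 1 library at 180 min Gohir.D01G053100 gave 0.0562 to 0.0774 and Gohir.D01G053200 no longer passed the filter. On recovered reads (voom) the adjusted p were 0.0740 and 0.0855, and with a pseudocount of 0.1 they were 0.0828 and 0.120.

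The members that fell in leaf were genes of the A10 and D10 clusters. The summed root markers in leaf were 297 to 410 FPKM at 0 min and 204 to 282 at 180 min, without overlap, and their part in these falls was not tested. Gohir.A10G170100 was at 7.90, 19.8 and 23.4 FPKM at 0 min and at 1.04, 1.11 and 3.32 at 180 min (log2 change -2.64 ± 0.72, limma adjusted p = 0.0212). Gohir.D10G177000, named after Bet v 1-A, was at 11.7, 31.2 and 44.7 FPKM and fell to 2.15, 3.70 and 6.18 (-2.49 ± 0.77, limma adjusted p = 0.0369). Both were also lower in root at 180 min. Without replicate 1 or 3 at 0 min, or replicate 1 or 2 at 180 min, neither leaf call held, with limma adjusted p of 0.0637 to 0.0739 for Gohir.A10G170100 and 0.0917 to 0.123 for Gohir.D10G177000, and the latter was lost without replicate 3 at 180 min too (0.0513). On recovered reads (voom) neither passed, with adjusted p of 0.0940 and 0.0889. Gohir.D10G175900 was lower in leaf, at most 0.350 FPKM at 180 min against 1.24 to 2.86 at 0 min (-1.18 ± 0.32, limma adjusted p = 0.0194), and higher in root and stem. Its leaf call was lost without replicate 1 at 0 min or replicate 2 or 3 at 180 min (limma adjusted p of 0.0810, 0.0502 and 0.0707).

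**Figure D5:**
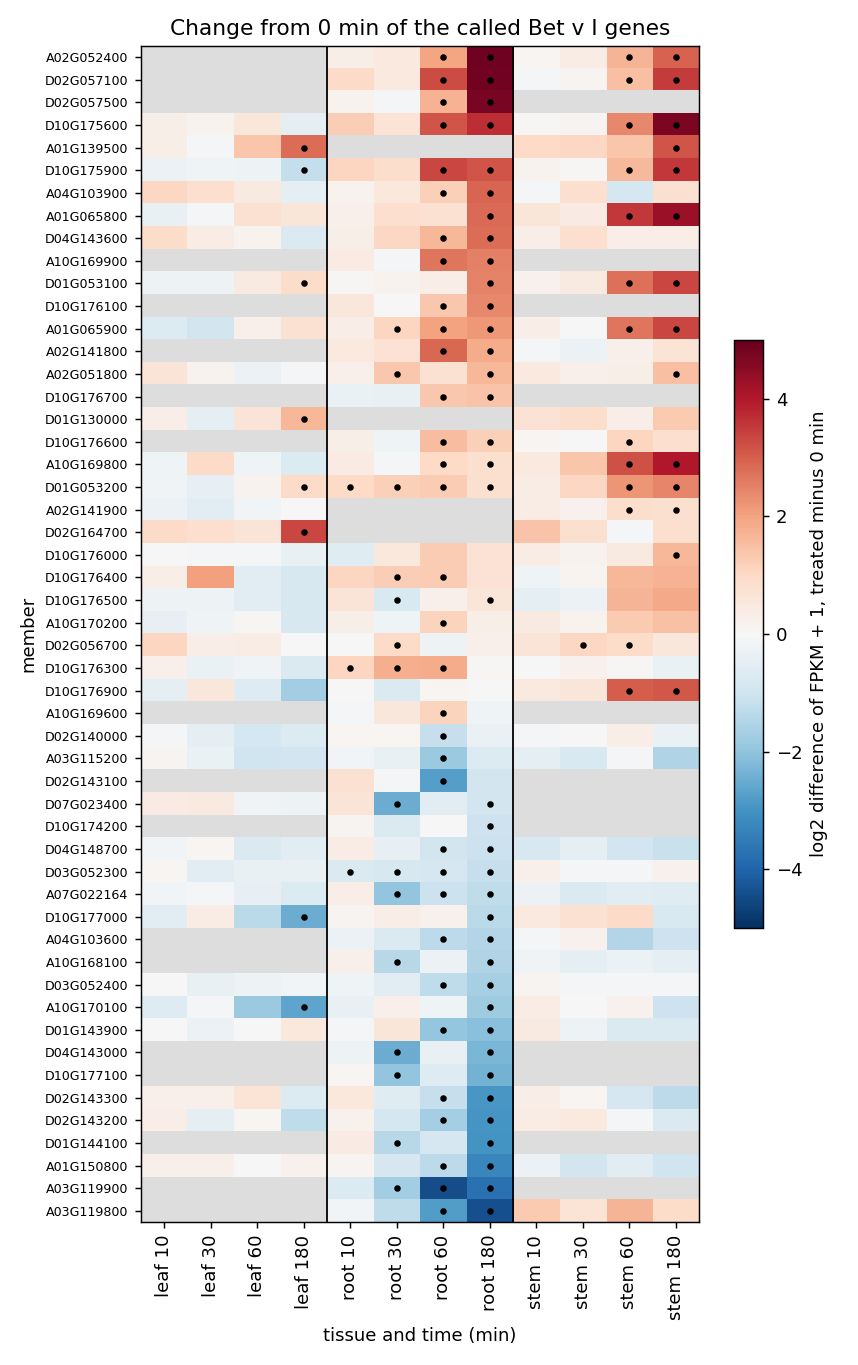
Change from 0 min of the 52 members called in at least 1 comparison, as the log2 difference of FPKM plus 1 (colour, red higher and blue lower), by tissue and time (columns). Members are ordered by the change in root at 180 min, or in stem or else leaf at 180 min where root was not tested. Black dots mark calls at a limma adjusted p under 0.05 and grey marks members not tested in that tissue, and the dots in root lie at both ends while those in stem are all on red.

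The F test of the tissue by time interaction called 43 of the 65 members tested in all libraries together, where 49.1% of all 54622 genes were called. The count holds 12 of the 12 members that passed the filter in root only. These are low in leaf and stem, where log2(FPKM + 1) keeps their change small, so a change in root alone yields a call. Of the 32 members that passed the filter in each tissue 20 were called, and on reads recovered from the FPKM (voom) 21 of the 65 were called. The 49.1% refers to all genes on log2(FPKM + 1). No such share is given here for these subsets or for recovered reads. The smallest adjusted p was that of Gohir.A10G169900 (limma adjusted p = 2.41e-10), a gene at 182 to 310 FPKM in root at 60 min and at most 0.418 FPKM in any leaf or stem library. On recovered reads its adjusted p was 0.357. Gohir.D10G175900 differed between leaf and root at 180 min by -4.34 ± 0.57 on the log2 scale (leaf minus root, limma adjusted p = 2.76e-07) and between leaf and stem by -4.72 ± 0.57 (limma adjusted p = 8.18e-07). For Gohir.D04G143600 the change at 180 min was larger in root than in stem by 2.46 ± 0.78 (limma adjusted p = 0.0163) and larger in root than in leaf (leaf minus root -3.48 ± 0.78, limma adjusted p = 6.47e-04). For Gohir.D10G176900 it was smaller in root than in stem (root minus stem -3.12 ± 1.12, limma adjusted p = 0.0351).

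Other defence-related families and relatives of the same fold were counted from their descriptions, with members of the Bet v I family left out. Beside them, 28.5% of all genes tested were higher and 26.9% lower in root at 180 min. In stem these shares were 15% and 14.3%, and in leaf 9.89% and 9.61%. Protease inhibitors of the potato inhibitor I and trypsin inhibitor types had 9 of 14 tested genes higher and 1 lower in root at 180 min, 8 of 12 higher and 0 lower in stem, and 6 of 13 higher and 0 lower in leaf. Gohir.A11G128400, a potato inhibitor I gene, had a mean of 0.958 ± 0.574 FPKM in root at 0 min and 173 ± 102 at 180 min (SD, n = 3; log2 change 6.34, limma adjusted p = 8.41e-08). PR-1 type genes gave 3 higher and 3 lower of 12 in root at 180 min, 0 higher and 3 lower of 8 in stem, and 0 called of 9 in leaf. Thaumatin-like genes gave 17 higher and 16 lower of 56 in root, 7 and 10 of 53 in stem, and 5 and 3 of 43 in leaf. Glucanases gave 21 higher and 28 lower of 81 in root, 7 and 20 of 81 in stem and 15 and 16 of 81 in leaf, and chitinases 5 and 10 of 35, 5 and 8 of 37, and 1 and 7 of 36. Barwin genes gave 1 higher and 0 lower of 4 in root, 2 and 0 of 6 in stem and 0 and 1 of 5 in leaf, and of the defensins 2 were tested in root and 2 in leaf with 0 called. Words for germin-like genes also matched genes named for germination, and words for further latex or PR-10 names also matched methyltransferases, so the counts of these lists were not used. The PR-1 and thaumatin lists also hold genes with a protein kinase domain, such as Gohir.D13G048500 and Gohir.A11G164600.

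Abscisic acid receptors together with proteins of the polyketide cyclase and START domains, 160 genes in all, had 30 higher and 38 lower of 99 tested in root at 180 min. In stem 27 of 121 were higher and 12 lower, and in leaf 20 of 115 were higher and 6 lower. Over all genes tested at 180 min, 28.5% were higher and 26.9% lower in root. The shares were 15% and 14.3% in stem and 9.89% and 9.61% in leaf. Some genes of this list carry a homeobox domain beside the START domain, such as Gohir.A05G132500 and Gohir.D05G131400. The pair with the smallest F test p in root, Gohir.D05G303700 and Gohir.D10G249900, are annotated with the polyketide cyclase domain. Gohir.D05G303700 had a mean of 4.54 ± 1.83 FPKM in root at 0 min and 109.7 ± 22.2 at 180 min (SD, n = 3; log2 change 4.35, limma adjusted p = 6.44e-09). Gohir.D10G249900 had 13.5 ± 2.25 and 258 ± 76.3 FPKM (log2 change 4.13, limma adjusted p = 3.83e-08).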

How the data were processed

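The deposited table gives FPKM per gene for 45 libraries. The tools named per the submitters' processing notes are HISAT2 2.0.5, an aligner, and featureCounts 1.5.0-p3, a read counter, and the genome build and the handling of strand and of reads with several matches are not given in the sources used here. Multiplied by gene length and depth factor, 100% of the deposited FPKM values came within 0.01 of a whole number of reads, and the deposited depth factors equalled median-of-ratios size factors over 42188 genes above 0 in all libraries. Of the value columns, 2 share 1 name and were used as root libraries at 0 min without a replicate number (called x and y). Tests used log2(FPKM + 1) and limma 3.58.1 in R 4.3.3 (trend and robust settings) on genes of at least 1 FPKM in at least 3 libraries of a fit, with 1 fit per tissue for changes from 0 min and 1 fit of all 45 libraries for tissues and interactions. P-values are two-sided and Benjamini-Hochberg adjusted over all genes kept, with calls under 0.05. The procedure was tested on simulated data. Members, lists and rules were chosen with earlier results of these data known. The rule for named genes took the 8 members with the highest mean, per tissue and time up to 3 called rises and falls without overlap, up to 4 differences each way between tissues at 0 min, the 6 smallest interaction p, and cluster neighbours of the highest members; Gohir.A01G065900 and Gohir.D01G053100 were named after their values were seen.  Alternatives were a pseudocount of 0.1, no filter, scaling to own totals, voom on recovered reads, a replicate block, the 6 libraries of a comparison alone, and each library left out.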

Additional observations from a re-analysis of the deposited data

Results flagged for a closer look

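Among members named for the smallest interaction p or the highest mean, the F test of the tissue by time interaction on log2(FPKM + 1) passed for the following (limma adjusted p): Gohir.A10G169900 (2.41e-10), Gohir.A03G119900 (1.30e-09), Gohir.D10G177100 (7.51e-09), Gohir.D10G175900 (7.49e-08), Gohir.A02G052400 (9.26e-08), Gohir.D02G057500 (2.43e-07), Gohir.A10G169800 (0.00226), Gohir.A02G051800 (0.00326), Gohir.D04G143600 (0.00347), Gohir.D10G176900 (0.00426) and Gohir.A04G103900 (0.0180). Members named by other rules also passed and are not all listed here. They include Gohir.D02G057100 (2.70e-06), Gohir.D04G143000 (1.48e-05), Gohir.D10G175600 (1.66e-05) and Gohir.A01G139500 (1.61e-04). On recovered reads (voom) the difference did not pass for Gohir.A10G169900 (adjusted p = 0.357), Gohir.A03G119900 (0.145), Gohir.D10G177100 (0.0587) and Gohir.D02G057500 (0.349), members that did not exceed 2.51 FPKM in any leaf or stem library. For these 4 the log2(FPKM + 1) scale holds the change in leaf and stem small, so the call says little beyond their change in root.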

How the results depend on the processing

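In 11 of 28 same-numbered pairs of libraries the deviations correlated over 0.1, with a range of -0.507 to 0.608. All 3 pairs did so only for stem at 10 min, where 0 members were called with and without a block, and the numbers were not taken as pairing elsewhere. With the replicate number as a block, members called in root were 0, 5, 11 and 22 at 10, 30, 60 and 180 min and 0 in stem at 30 min. In root this fit drops the 2 libraries without a number, which leaves 1 library at 0 min that is assumed to vary like the other groups. Own totals gave 1 member in leaf at 60 min. On recovered reads (voom) 4 members were called in leaf at 180 min, 5 in leaf over all times and 21 for the interaction. Without a filter 5 were called in leaf over all times and 0 in stem at 30 min. A pseudocount of 0.1 gave 2 and the 6 libraries alone gave 0 in stem at 30 min. Leaving out each library of the groups compared gave 0 to 1 members in leaf at 30 min and at 60 min, 3 to 8 at 180 min and 4 to 10 over all times. In root it gave 2 to 6 at 10 min and 9 to 16 at 30 min, with 6 at 10 min without library x of 0 min, 2 without library y, and 9 at 30 min without replicate 2 of that time. At 60 min in root it gave 24 to 31, below the 33 of the full fit, and at 180 min 32 to 38. In stem it gave 0 to 1 at 30 min, 9 to 19 at 60 min and 12 to 19 at 180 min. Over named members and all these left-out libraries, 299 of 342 values kept their call, 43 lost it and 0 turned. Changes below the level of a few reads were not detectable at this depth.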
